A study of Mus musculus with 10 samples.

Results

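Adrenergic and cAMP signalling genes of fat were described over 10 epididymal white adipose tissue (eWAT) samples. The genes are *Adrb3*, *Adrb1*, *Adra1a*, *Adra2a*, *Adora1*, *Npr3*, *Gnas*, *Prkar2b* and *Pde3b*, chosen by name, and every non-control probe that carries one of these names in the array annotation was taken. They make up 9 of the 34797 gene names and 17 of the 55681 probes of the array. *Gnas* has 4 probes, *Prkar2b* 3, *Adrb1*, *Adrb3* and *Pde3b* 2 each and the other genes 1.

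All 10 samples belong to 1 group of wild-type male mice. The labels give the strain as C57BL/6J in one field and C57BL/6JOlaHsd in another. The mice were 9 weeks old at the start, ate a purified low fat diet for 3 weeks and a high fat diet (HFD) for 12 weeks, lived at 29°C throughout, and then received the iron chelator desferrioxamine (DFO, 100 mg/kg) by injection on each of 5 days. Tissue was taken on the day after, following 2 h without food. Each mouse (Cy5) was hybridised on 1 array against 1 common pool (Cy3) that held RNA of all samples of the wider study, control mice and these mice included. Control arrays were not analysed here and the dyes were not swapped, so no effect of DFO was tested, no log2 ratio to the pool was tested against 0, and only differences between mice are read.

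Noradrenaline from sympathetic nerves drives lipolysis in fat cells through β-adrenergic receptors, of which the β3 receptor, encoded by *Adrb3*, is the main one of mouse adipocytes. These receptors act through the stimulatory G protein α subunit (*Gnas*), which switches on adenylyl cyclase. The cAMP it makes releases the catalytic subunits of protein kinase A from regulatory subunits such as RIIβ (*Prkar2b*). The α2A receptor (*Adra2a*) and the adenosine A1 receptor (*Adora1*) couple to inhibitory G proteins and restrain the cyclase, phosphodiesterase 3B (*Pde3b*) breaks cAMP down in response to insulin, and *Npr3* encodes the receptor that clears natriuretic peptides, which drive lipolysis through cGMP.

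The probes behind the results are shown because each value below is the brightness of such a 60-base sequence. Positions are those of the array annotation on the mouse build mm9, and exon annotation of that build was not used here. Whole sequences are given for the *Adrb3* and the *Adrb1* probe nearer to the start of its gene and the first 30 bases for the others, written 5′ to 3′ without capitals since no base was singled out. The *Adrb3* probes lie on the minus strand of chromosome 8, at chr8:28336268-28336327 for A_55_P1992849 and chr8:28337864-28337923 for A_55_P2105685. The *Adrb1* probes lie on the plus strand, at chr19:56799215-56799274 for A_52_P322181 and chr19:56797242-56797301 for A_51_P203827. The *Npr3* probe is at chr15:11769937-11769996, the leading *Prkar2b* probe at chr12:32643366-32643425 (both minus strand) and the leading *Pde3b* probe at chr7:121681370-121681429 (plus strand).
Adrb3 A_55_P1992849, first 30 bases: gggttcataggaagaagtcaaactattgga
Adrb3 A_55_P2105685: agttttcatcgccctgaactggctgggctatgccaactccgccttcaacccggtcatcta
Adrb1 A_52_P322181, first 30 bases: gttggaaggccattttgcacagtgttaggc
Adrb1 A_51_P203827: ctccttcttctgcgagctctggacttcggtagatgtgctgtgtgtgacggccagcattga
Npr3 A_51_P247184, first 30 bases: aaacgtaccatgaatctggtagaagagtcc
Prkar2b A_55_P2055087, first 30 bases: cggctatgaatgccagctctgttctgttca
Pde3b A_55_P2032538, first 30 bases: cacttttgctaccacaactacatcatttgt

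The samples carried adipocyte RNA in every mouse, with a median Cy5 signal of 63607 for *Adipoq* (adiponectin) and 182130 for *Fabp4* (the fatty acid binding protein of adipocytes). They did not form a single cloud. On the first principal component of the 27718 expressed probes, which held 75.1% of the variance between mice, mice 4, 5, 6 and 7 were parted from the other 6 by a gap of 0.513 of the range. Mouse 2 stood alone on the second component (8.80%) and had the highest log2 ratio of all mice for *Tekt1* of motile cilia (1.62), *Cnn1* of smooth muscle (2.22) and *Prm1* of sperm (-1.37). The labels do not distinguish any of these mice, so they are given by number and never averaged as groups.

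Of the 9 genes, 8 varied more over the samples than the pool did on the same arrays. The test set the variance of log2 Cy5 over the 10 arrays against that of log2 Cy3, which is the same pool on each array (Pitman-Morgan test, Benjamini-Hochberg adjusted over all probes tested, threshold 0.05). Cy5 also holds the dissection, RNA quality and labelling of each sample. The pool does not measure these, so the test cannot part them from differences between mice. The channels were normalized together, so Cy3 is not independent of Cy5, and a gene not past the test can still differ between mice. The adipocyte gene *Fabp4* had an SD of the log2 ratio of 1.13 and did not pass (Pitman-Morgan adjusted p = 0.823). Cy5 varied more for 14964 of 25049 probes tested, or 59.7%, and Cy3 for 40, or 0.16%. The gene not past the test was *Adra1a*. Of the 17 probes, 13 were bright enough to be tested and 12 of these passed. A gene is read through its leading probe, the one with the highest mean Cy5 signal. The median SD of the log2 ratio over the 9 leading probes was 0.82, against 0.18 over all probes tested. These sets are unlike, since each of the 9 is the brightest probe of its gene and all probes tested include dimmer ones. A probe printed several times on an array had a median SD of 0.084 over its repeated spots (269 probes, not the members). For the leading probes of the members, the scanner's own error of the log2 ratio had a median over arrays of 0.20 to 0.38. It was 0.20 for *Gnas* and 0.33 for *Adra2a*, near their SDs between mice of 0.22 and 0.34. With the processed signals of the scanner software in place of the normalized channels, 4 of the 9 genes passed (*Adrb3*, *Adrb1*, *Adora1* and *Npr3*), and 7322 of all probes.

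**Figure D1:**
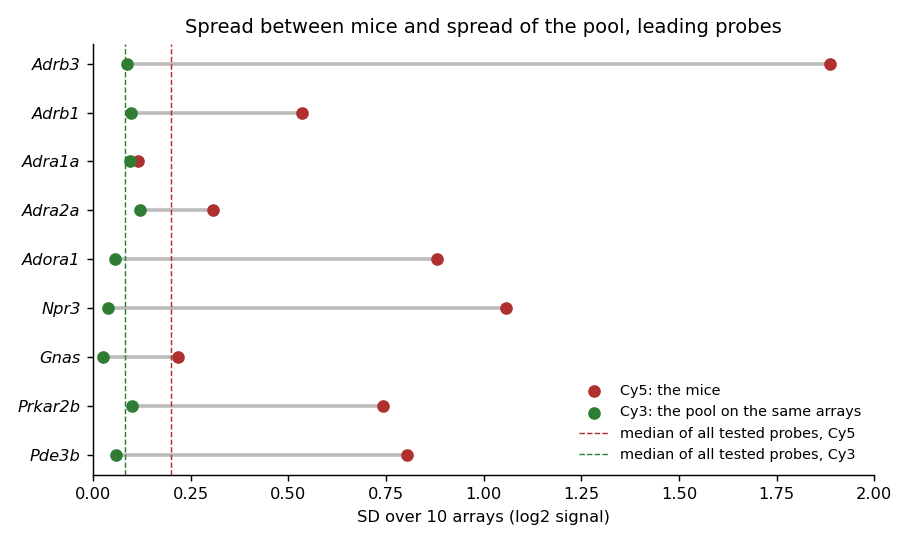
SD of the log2 signal over the 10 arrays for the leading probe of each gene, in Cy5 (red, the mice) and in Cy3 (green, the pool on the same arrays), with the medians over all 25049 tested probes as dashed lines. *Adrb3* has a Cy5 SD of 1.89 against a Cy3 SD of 0.087, while both SDs of *Adra1a* lie near the Cy3 median.

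Expression of *Adrb3* differed more between mice than that of any other of the 9 genes. By its leading probe the log2 ratio to the pool was -3.64, -3.29, -2.89 and -3.60 in mice 4, 5, 6 and 7, -1.56 in mouse 2, and -0.10, -0.09, 0.56, 0.86 and 1.04 in mice 1, 3, 8, 9 and 10. Mice 4 to 7 were thus lowest, mouse 2 lay between them and the other 5, and the lowest of the 10 (mouse 4) and the highest (mouse 10) were 25.7-fold apart. The background-uncorrected Cy5 signal of this probe ran from 1088 to 32375.5, well above background on all arrays. The SD between mice was 1.94 (n = 10), which exceeds that of 99.97% of the probes tested, and Cy5 varied more than Cy3 (adjusted p = 5.07e-08). The second *Adrb3* probe gave -2.04, -2.09, -1.97 and -2.38 in mice 4 to 7, -1.11 in mouse 2 and 0.03 to 0.88 in the others (SD 1.33, adjusted p = 4.09e-07). The 2 probes differ in size rather than in the mice they part, and the SD of their difference was 0.63.

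*Adrb1*, the β1 receptor gene, was dim. Its leading probe gave -0.65, -0.75, -0.58 and -0.92 in mice 4, 5, 6 and 7 and between -0.01 and 0.58 in the other 6 (SD 0.52, adjusted p = 2.28e-04). Mice 4 to 7 were thus lowest, an order that 21.3% of all expressed probes had. Cy5 was not well above background in mice 4, 5 and 7, and the value there is only a bound. The offset of 50 draws dim values together, and by the scanner's own log ratio the range of this probe over the mice was 4.04 in place of 1.50. The other *Adrb1* probe, whose Cy3 was above background on no array, was not tested and ran from -0.06 to 0.33. It gave 0.11, 0.02, -0.06 and 0.08 in mice 4, 5, 6 and 7, which overlapped with 0.07 to 0.33 in the others. *Adra1a*, an α1 receptor gene that signals through another G protein class, ran from -0.13 to 0.21 with a median of 0.00 and an SD of 0.11. No difference between mice was detectable at this signal (adjusted p = 0.574), which was well above background in Cy5 on 9 arrays and in Cy3 on 6, and its range was 1.47 by the scanner's log ratio in place of 0.35.

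The 2 receptor genes that restrain the cyclase were also lowest in mice 4 to 7. *Adora1* was bright, and its single probe gave -1.40, -1.39, -0.53 and -1.74 in mice 4, 5, 6 and 7 and -0.09 to 0.60 in the others (SD 0.88, adjusted p = 6.13e-07). Here the highest mouse was mouse 1 and not mouse 10, which was the lowest of the 6 mice above. *Adra2a* gave -0.58, -0.12, -0.28 and -0.66 in mice 4, 5, 6 and 7 and -0.05 to 0.29 in the others (SD 0.34), and the gap between mouse 5 and mouse 10 was 0.07. Cy5 of *Adra2a* was not well above background in mice 4 and 7, its adjusted p was 0.0278, and its range was 3.39 by the scanner's log ratio in place of 0.95. This call was lost with no filter on dim probes (adjusted p = 0.0547), with the slide as a block (0.146), with the scanner's processed signals (0.146) and without mouse 4 (0.0910) or mouse 7 (0.107).

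*Npr3* had the second largest spread. Its probe gave -1.96, -1.74, -0.88 and -2.20 in mice 4, 5, 6 and 7, and -0.10, 0.08, 0.14, 0.43, 0.44 and 0.62 in mice 2, 3, 1, 10, 8 and 9, a 7.07-fold difference between mouse 7 and mouse 9 (SD 1.09, adjusted p = 1.06e-08). Mouse 2, intermediate for *Adrb3*, lay with the other 5 mice for *Npr3*. Mouse 6 was the highest of mice 4 to 7 for *Npr3*, as it was for *Adora1*.

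*Gnas*, the G protein through which the β receptors act, had the smallest SD between mice of the members past the variance test. That SD still exceeded the SD of 60.8% of the probes tested. Its leading probe gave -0.52 in mouse 3, the lowest, and -0.31 in mice 5 and 7, and reached 0.16 in mouse 2, the highest (SD 0.22, range 0.68). Mice 4 to 7 were not the 4 lowest, since mouse 4 lay at -0.06. By the scanner's log ratio the lowest was mouse 5 (-0.25), with mouse 3 at -0.23. Cy3 of this probe was very even, with an SD of 0.026, and Cy5 varied more (adjusted p = 2.16e-05). The call was lost without normalization between arrays (adjusted p = 0.128) and the sign of the SD difference turned with the scanner's processed signals. The range was 1.70 with median centring and 0.36 with the mean over the expressed *Gnas* probes. The other 3 *Gnas* probes, annotated to other transcripts of this complex imprinted locus, were too dim to be tested. Cy5 was above background on 7, 1 and 0 arrays and Cy3 on 1, 1 and 0.

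*Prkar2b*, the regulatory subunit that predominates in adipocytes, was measured by 3 bright probes that followed each other. The leading probe gave -1.42, -1.45, -0.84 and -1.83 in mice 4, 5, 6 and 7 and -0.17 to 0.41 in the others (SD 0.83, adjusted p = 2.34e-06). The other probes had SDs of 0.78 and 0.75, and the SD of the difference between any pair of the 3 was 0.11 to 0.14, so the disagreement between probes was small beside the spread between mice. *Pde3b* gave -1.50, -1.25, -0.87 and -1.33 in mice 4, 5, 6 and 7 and -0.16 to 0.63 in the others by its leading probe (SD 0.82, adjusted p = 1.07e-06). Its second probe, above background in Cy5 on 6 arrays, ran only from -0.45 to 0.09 (adjusted p = 0.0423), and the mean over both probes had a range of 1.34 in place of 2.13. With the scanner's processed signals neither *Prkar2b* (adjusted p = 0.330) nor *Pde3b* (0.168) passed.

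**Figure D2:**
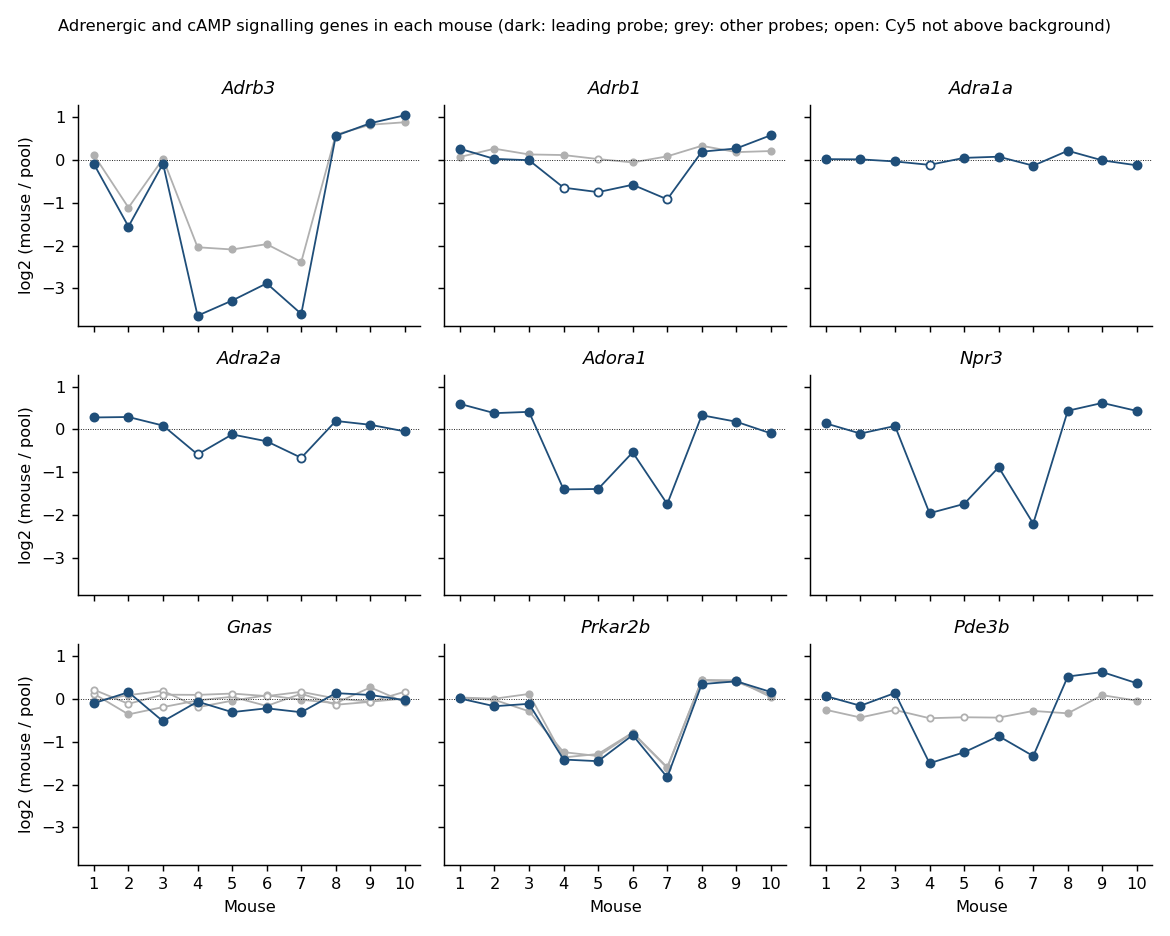
log2 ratio of each mouse to the pool for the 9 genes (dark, leading probe; grey, other probes; open symbols, Cy5 not well above background), mice 1 to 10 on the x axis. Mice 4 to 7 are the 4 lowest for the leading probe of 7 genes, with the deepest values for *Adrb3* (-3.64 in mouse 4), and not for *Adra1a* and *Gnas*.

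Mice 4 to 7 were the 4 lowest for the leading probe of 7 of the 9 genes. Of all 27718 expressed probes, 21.3% had this order and 17.9% the opposite one, with mice 4 to 7 the 4 highest. These sets are unlike, since a leading probe is the brightest of its gene and the expressed probes include dimmer ones. The second *Adrb1* probe had mice 1, 5, 6 and 7 lowest, and the second *Pde3b* probe mice 2, 4, 5 and 6. Leading probes gave the same count of 7 with the scanner's log ratio, the median pixel signal and the deposited value table. It was 6 with no background subtraction and 3 with median centring, under which mouse 3 in place of mouse 6 was among the 4 lowest for *Adora1*, *Prkar2b*, *Pde3b* and *Npr3*. For *Adrb3*, *Adrb1* and *Adra2a* the same mice were lowest under both normalizations.

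The 5 slides held 2 arrays each, and the slide as a factor passed for 0 of 27718 probes (limma moderated F test, adjusted), with 1137 probes, or 4.1%, at an unadjusted p under 0.05. Mice 4 to 7 lay on 3 slides. On slide 2, the difference of mouse 4 minus mouse 3 was -3.55 for *Adrb3* and -2.04 for *Npr3*. On slide 4, mouse 8 was above mouse 7 by 4.16 for *Adrb3*, 2.64 for *Npr3*, 2.18 for *Prkar2b*, 2.08 for *Adora1* and 1.86 for *Pde3b*. On slide 3, which held mice 5 and 6, the difference for *Adrb3* was 0.40, and on slide 5, with mice 9 and 10, it was 0.19. Mice 1 and 2, both on slide 1, differed by -1.46 (mouse 2 minus mouse 1) for *Adrb3* and by no more than 0.26 in size for each of the other 8 genes.

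Markers of several cell types had the order of mice of these genes or its opposite, and markers of others did not. Of all expressed probes, 21.3% had mice 4 to 7 as the 4 lowest and 17.9% as the 4 highest. Of all probes tested, 59.7% passed the variance test. The counts of markers per cell type are small and were not tested against these shares. All 8 adipocyte markers (*Adipoq*, *Cfd*, *Cidec*, *Fabp4*, *Lep*, *Lipe*, *Plin1* and *Pparg*) had mice 4 to 7 as the 4 lowest, and all but *Fabp4* passed the variance test. Their median log2 ratio was -1.86, -1.70, -1.10 and -2.18 in these mice and between -0.11 and 0.63 in the others. All 7 macrophage markers, of which *Itgam* alone did not pass, had them as the 4 highest, with a median of 0.58 to 0.84 against -0.92 to 0.03. The 4 smooth muscle markers and the 3 blood markers were lowest in mice 4 to 7, as were 3 of 4 endothelial markers (*Cdh5*, *Pecam1* and *Tie1*, not *Kdr*). Of 5 mesothelial markers *Krt19*, *Krt8* and *Msln* were lowest in mice 4 to 7 and *Upk3b* and *Wt1* had neither order. Of 4 fibroblast and progenitor markers *Dpp4* was lowest, *Col1a1* highest and *Pdgfra* and *Pi16* neither. The lymphocyte markers *Cd3e* and *Ms4a1*, the sperm markers *Prm1* and *Prm2* and the epididymal *Lcn12* had neither order, while the brown fat marker *Cidea* and *Tekt1* of motile cilia were lowest in mice 4 to 7. Of the sympathetic nerve markers, *Npy* (0.45 to 1.08 in mice 4 to 7, -0.48 or less in the others) and *Th* (0.10 to 0.41 against 0.04 or less, not past the variance test) had mice 4 to 7 as the highest, while *Dbh*, the enzyme that makes noradrenaline, was not well above background. In a bulk sample, fewer adipocytes and less of an RNA per adipocyte cannot be told apart, and the part that cell content takes in these differences was not tested.

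**Figure D3:**
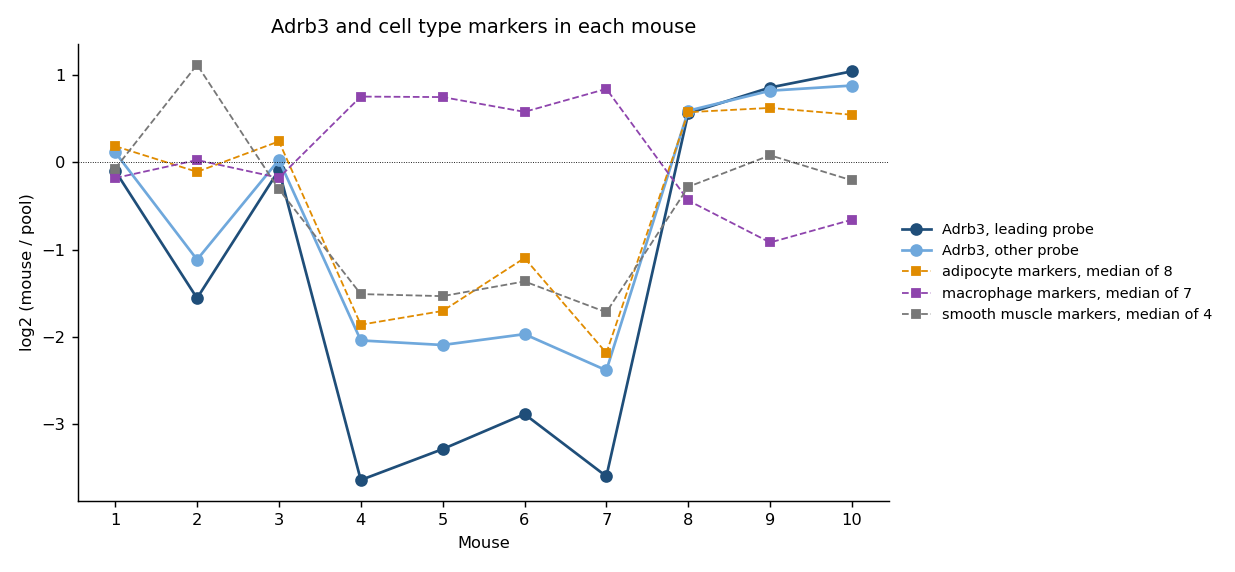
log2 ratio to the pool in each mouse for both *Adrb3* probes (solid lines) and the median of the adipocyte, macrophage and smooth muscle markers (dashed lines). In mice 4 to 7 the leading *Adrb3* probe (-3.64 to -2.89) lies below the adipocyte marker median (-2.18 to -1.10), and the second probe (-2.38 to -1.97) lies nearer to it. In mouse 2 the leading probe is at -1.56 while the adipocyte median is at -0.11 and the smooth muscle median at 1.12.

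Set against the adipocyte marker median of the same array, the ranges of the 9 genes ran from 0.37 to 2.72. *Npr3* followed the markers closely, with a difference of -0.16 to 0.21 over the 10 mice, so that its range fell from 2.82 to 0.37. The range of *Prkar2b* became 0.83, that of *Pde3b* 1.03 and that of *Adora1* 1.20, and *Pde3b* was then above the markers in mice 4 to 7 (0.23 to 0.85) and between -0.18 and 0.00 in the other mice. The range of *Adrb3* fell from 4.69 to 2.29. By its leading probe *Adrb3* was at -1.78, -1.58, -1.79 and -1.41 relative to the markers in mice 4, 5, 6 and 7. It was at -1.45 in mouse 2 and ran from -0.33 to 0.50 in mice 1, 3, 8, 9 and 10. The second *Adrb3* probe gave -2.04, -2.09, -1.97 and -2.38 in mice 4 to 7. These values lay nearer to the marker medians there, which were -1.86, -1.70, -1.10 and -2.18. Among the markers *Cfd* alone lay below the leading *Adrb3* probe in these mice (-4.68, -4.12, -3.36 and -4.69). The range of the 4 remaining genes grew, from 0.35 to 2.72 for *Adra1a*, from 0.68 to 2.64 for *Gnas*, from 0.95 to 2.18 for *Adra2a* and from 1.50 to 1.65 for *Adrb1*. All 4 lay above the markers in mice 4 to 7, by 0.52 or more, and at 0.40 or less in the other mice. For *Adrb1* and *Adra2a* this rests on dim values that the offset draws together. By the scanner's log ratio *Adrb1* was -1.95, -2.22, -1.30 and -3.02 in mice 4, 5, 6 and 7, below the marker medians of the reported normalization. *Adra2a* was then -2.16 and -2.60 in mice 4 and 7, also below them, and -0.22 and -0.50 in mice 5 and 6, above them. These differences are descriptions without a test.

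**Figure D4:**
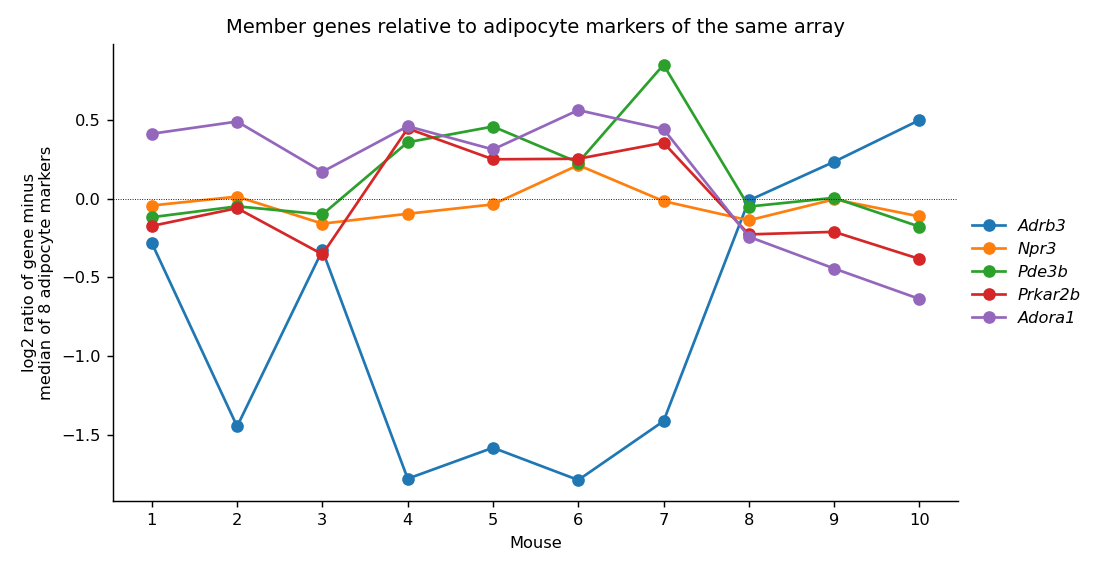
log2 ratio of the leading probes of 5 genes minus the median log2 ratio of the 8 adipocyte markers on the same array, by mouse. *Npr3* stays between -0.16 and 0.21, while *Adrb3* lies at -1.41 or lower in mice 2 and 4 to 7 and at -0.33 or higher in the other 5.

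The relation of *Adrb3* with each of the other 8 genes was computed within mice 1, 2, 3, 8, 9 and 10, which the first component keeps together, since mice 4 to 7 form a separate cluster and are too few. *Adrb3* and *Npr3* had an r of 0.911 and a rho of 0.771 (exact permutation test, two-sided, p = 0.0167 and 0.103, adjusted over the 8 pairs 0.0667 and 0.164), and *Adrb3* and *Pde3b* an r of 0.889 and a rho of 0.829 (exact permutation p = 0.0153 and 0.0583, adjusted 0.0667 and 0.156). For *Prkar2b* r was 0.802 and rho 0.771 (exact permutation adjusted p = 0.133 and 0.164). The 2 inhibitory receptors had the opposite sign, with an r of -0.725 for *Adra2a* and -0.592 for *Adora1* and a rho of -0.829 for both (exact permutation adjusted p for r = 0.169 and 0.281, for rho 0.156 for both). None of the 8 pairs passed the threshold. When each gene's own gap decided whether the mice were parted, as first planned, 4 pairs passed: *Npr3*, *Adora1* and *Adra2a*, whose r then spans mice 4 to 7 and the other 6, and *Pde3b* within the 6 mice. Over those 10 mice the sign of both inhibitory receptors turned, to an r of 0.749 for *Adra2a* and 0.840 for *Adora1*. For *Adora1* it also turned within the 6 mice with median centring (r = 0.073). Without the 2 mice farthest from the median of *Adrb3*, r was 0.993 for *Npr3*, 0.990 for *Pde3b*, 0.968 for *Prkar2b*, -0.892 for *Adora1* and -0.315 for *Adra2a*, over 4 mice. The 6 mice lay on slides 1, 2, 4 and 5, of which only slides 1 and 5 held a pair of them, and no r can be had from a single pair. On slide 1 mouse 2 was below mouse 1 for *Adrb3* (-1.46), *Npr3* (-0.24), *Pde3b* (-0.22) and *Prkar2b* (-0.18). On slide 5 mouse 10 was above mouse 9 for *Adrb3* (0.19) and below it for *Npr3* (-0.19), *Pde3b* (-0.26) and *Prkar2b* (-0.25), so the direction within slides was shared on slide 1 and opposed on slide 5. *Adrb1* (r = 0.721), *Gnas* (-0.028) and *Adra1a* (-0.092) completed the set.

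The wider pathway was described with a list of receptors, G proteins, cyclases, phosphodiesterases, kinase subunits and targets, of which 102 genes were on the array and 91 were bright enough to test. Cy5 varied more than Cy3 for 76 of the 91, or 83.5%, where 59.7% of all probes tested did. The count was 29 without normalization between arrays and 34 with the scanner's processed signals, where 4675 and 7322 of all probes passed, and the calls by role below hold for the reported normalization. The median SD of the log2 ratio was 0.28 against 0.18 over all probes. Mice 4 to 7 were the 4 lowest for 38 of the 91 (41.8%, against 21.3% of all expressed probes) and the 4 highest for 19 (20.9%, against 17.9%). The sets compared are unlike. Each of the 91 is the brightest probe of its gene and was bright in both channels. The shares over all probes include dimmer probes of the same genes, and expressed probes were chosen on Cy5 alone. The 12 largest spreads among those past the test were 10 genes lowest and 2 genes highest in mice 4 to 7. *Pck1*, a cAMP-induced enzyme of glyceroneogenesis, ran from -3.56 in mouse 5 to 1.22 in mouse 9 (SD 1.89). The succinate receptor *Sucnr1*, which couples to inhibitory G proteins, ran from -2.68 to 0.42 (SD 1.28), and the cAMP-binding membrane protein *Popdc2* from -1.60 to 0.96 (SD 1.00). *Adcy5*, a cyclase, ran from -2.08 to 0.32 (SD 0.98), and *Maob*, an amine oxidase that degrades catecholamines, from -1.67 to 0.64 (SD 0.95). The inhibitory G protein subunit *Gnai1* had an SD of 0.92, the corticotropin receptor *Mc2r* 0.89, the cAMP-activated exchange factor *Rapgef3* 0.89, the prostaglandin receptor *Ptger3* 0.88 and the thyrotropin receptor *Tshr* 0.82. The cyclase *Adcy7* went the other way, from -1.09 in mouse 9 to 1.01 in mouse 7 (SD 0.85), and so did *Rgs2*, a regulator that speeds the switching off of G proteins, from -1.21 in mouse 9 to 0.83 in mouse 7 (SD 0.80).

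**Figure D5:**
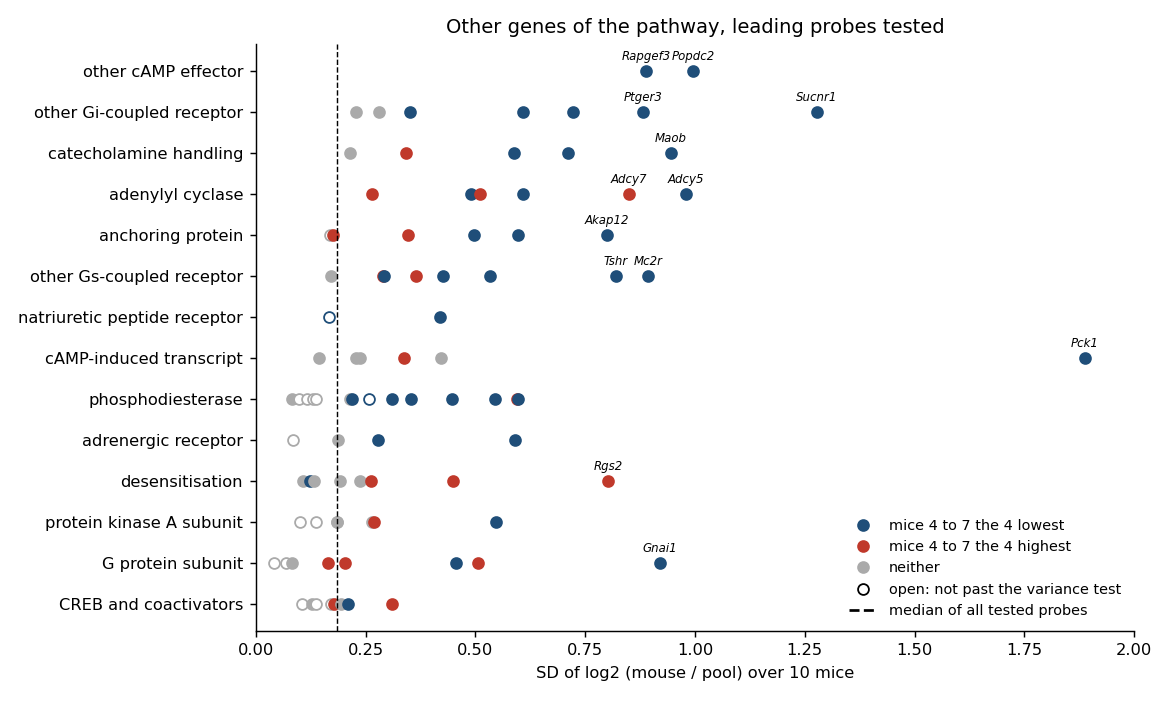
SD of the log2 ratio to the pool over the 10 mice for the 91 tested genes of the list, by role (y axis), coloured by whether mice 4 to 7 were the 4 lowest (blue), the 4 highest (red) or neither (grey), with open symbols for genes not past the variance test. *Pck1* lies farthest right at 1.89, adenylyl cyclases hold both colours, and the CREB group lies near the median of all tested probes (dashed line, 0.18).

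By role the counts were as follows, with no test between roles. Of all probes tested 59.7% passed, and of all expressed probes 21.3% had mice 4 to 7 lowest and 17.9% highest. The counts of each role are small and were not tested against these shares. The genes with mice 4 to 7 lowest or highest are named for the cyclases, the receptors of other ligands, desensitisation and protein kinase A, chosen after their values were seen, and the remaining genes of these roles had neither order. Of the 6 tested adenylyl cyclases all passed the variance test, with *Adcy4*, *Adcy5* and *Adcy6* lowest in mice 4 to 7 and *Adcy3*, *Adcy7* and *Adcy9* highest. Of 7 receptors that couple to inhibitory G proteins, all passed and *Sucnr1*, *Ptger3*, *Ffar2*, *Niacr1* and *Gpr81* were lowest in mice 4 to 7 (*Niacr1* and *Gpr81* are the array's names for the hydroxycarboxylic acid receptors). Of 8 receptors that couple to the stimulatory one, all passed, with *Mc2r*, *Tshr*, *Adora2a*, *Gipr* and *Vipr1* lowest and *Ptger4* and *Adora2b* highest. Of 14 phosphodiesterases 9 passed, mice 4 to 7 were the lowest for 7 and *Pde8b* was the only one with them as the highest. All 8 genes of receptor desensitisation passed, with *Adrbk1*, *Arrb2* and *Rgs2* highest in mice 4 to 7 and *Grk6* lowest. Of 7 other subunits and inhibitors of protein kinase A 5 passed, with *Pkia* lowest and *Prkar1a* highest, and the catalytic subunit *Prkaca* did not pass (SD 0.14, adjusted p = 0.711). Of the other adrenergic receptors, *Adra1d* (SD 0.28), *Adra2b* (0.19) and *Adra2c* (0.59) passed and *Adra1b* (0.09) did not. *Adra2c* was highest in mouse 2, at 1.24 against -0.09 or less in the others. The 4 smallest SDs were those of *Gnaq* (0.04), *Gnai2* (0.07), *Pde8a* (0.08) and *Gnb2* (0.08). Of these, *Pde8a* and *Gnb2* passed the test and *Gnaq* and *Gnai2* did not.

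The genes most like each member over the 10 mice were found by the smallest root mean square (RMS) difference between centred log2 ratios, among tested probes whose symbol is in the RefSeq gene table. For *Adrb3* they were *Pck1* (RMS 0.32), the carboxylesterase *Ces1d* (0.34) and the metalloproteinase inhibitor *Timp4* (0.42). The RMS difference grows with the spread of a gene, and *Adrb3* had the largest SD of the members (1.94). Its RMS values therefore do not compare with those of the other members. *Pck1* shared the intermediate value of mouse 2 (-0.94), while *Timp4* did not (-0.14). Those named for *Npr3* are *Amhr2* (0.10) and the growth hormone receptor *Ghr* (0.12), and another probe of *Ghr* was also nearest to *Prkar2b* (0.076), followed by *Tspan12* (0.079) and the alanine aminotransferase *Gpt* (0.083). *Itih5* (0.079), *Arl4a* (0.10) and *Hoxc6* (0.11) were nearest to *Pde3b*, and *Slc13a4* (0.12), *Rasl12* (0.18) and *Lpgat1* (0.18) to *Adora1*. *Adrb1* was nearest to *Nlrp1a* (0.063), *Dll1* (0.083) and the kinase anchor *Akap1* (0.083), *Adra2a* to the phosphodiesterase *Pde4b* (0.081), *Tsc22d1* (0.095) and *Clec2i* (0.099), and *Gnas* to *Arl6* (0.051), *Uqcrb* (0.062) and *Nudt9* (0.065).

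Promoter sequences from RefSeq (GRCm38.p6, 250 bases before to 50 after each transcript start) were matched by symbol for 6 of the 9 genes, with 11 promoters, and searched on both strands for letters that cAMP-responsive and nuclear receptor sites carry. The full palindrome TGACGTCA was in none of the 11 and in 1.79% of all 32851 promoters. The shorter TGACG, which the palindrome contains, was in 6 of the 11, in *Npr3*, *Adrb1*, *Adra2a* and *Gnas*, and in 20.8% of all promoters. AGGTCA was in none of the 11 and in 16.3% of all. The *Gnas* promoters overlap in part, and the matches that begin at -38 and at -57 from their starts are the same bases. The count of promoters is therefore larger than that of separate sites, which lay in 4 genes. *Gnas* did not follow the order of mice of the other 3 genes. The 120 bases before the start are shown for those 3 genes with TGACG in capitals, at chr15:11907372-11907491 (minus strand) for *Npr3*, chr19:56721997-56722116 (plus strand) for *Adrb1* and chr19:54045139-54045258 (plus strand) for *Adra2a*. A match of letters is a description and not a bound site.
Npr3: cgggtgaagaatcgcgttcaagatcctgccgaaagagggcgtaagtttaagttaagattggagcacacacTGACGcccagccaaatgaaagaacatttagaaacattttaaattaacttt
Adrb1: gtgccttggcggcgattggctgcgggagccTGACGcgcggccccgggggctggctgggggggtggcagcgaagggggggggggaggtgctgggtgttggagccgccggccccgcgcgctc
Adra2a: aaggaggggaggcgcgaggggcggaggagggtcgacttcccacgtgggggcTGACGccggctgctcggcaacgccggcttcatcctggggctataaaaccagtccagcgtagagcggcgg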

How the data were processed

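RNA of eWAT from 10 mice was measured on Agilent 2-colour arrays (60-base probes, positions on mm9), 1 array per mouse. The authors deposited 1 scanner file per array, written by Agilent Feature Extraction 10.7.3.1, with the intensity of each spot and its local background, not normalized, and the software's log10 ratio of Cy5 over Cy3, which it had background-subtracted and dye-normalized. A deposited table holds normalized log2 values of 30733 spots, whose columns all had a median of 8.52 and followed log2 Cy5 (r 0.994 to 0.999). Its normalization is not given in the sources used here, so it served only for differences between mice.

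Mean signals were background-corrected with normexp (offset 50) and loess-normalized within arrays, and channels were Aquantile-normalized, with limma 3.58.1 in R 4.3.3. Control and outlier spots were left out, and 59305 spots gave 55681 probes. Probes with Cy5 well above background on 5 or more of the 10 arrays counted as expressed, and those with both channels so were tested for variance. Median Cy5 signals were 54.8 to 81.3 over a background of 32 to 37, without saturated spots. The number of arrays limits the precision. Python 3.11.15, numpy 2.4.6, pandas 2.3.3 and scipy 1.17.1 served for the rest. The scripts were tested on simulated data.

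Members, lists and tests were chosen with earlier results of these data known. All 9 members were named with every probe. Other pathway genes were named for the 12 largest SDs among those past the test and the 4 smallest, further ones by role after their values were seen, and 3 nearest genes for each member past it, apart from items that are not reported here. By the planned rule the mice were parted by each gene's own gap, but relations were computed within the 6 mice for all pairs, a choice made after the values were seen. The samples are separate mice of 1 group, and the pool is no control group.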

Additional observations from a re-analysis of the deposited data

How the results depend on the processing

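The number of arrays, the dim signal of *Adrb1*, *Adra1a* and *Adra2a* and the lack of a dye swap limit these results, and the cause of each change below was not tested. Probes with Cy5 varying more numbered 14964 as reported, 4675 without normalization between arrays and 7322 with the scanner's processed signals, and 13484 to 14420 with single mice left out. For the members it was 4 with the processed signals and 7 to 8 with single mice left out, and for the pathway list 29 and 34 under those 2 settings and 71 to 76 with single mice left out. The sign turned for *Gnas* with the processed signals (log2 of the Cy5 over the Cy3 SD -0.29, adjusted p = 0.514). Ranges over the mice moved by more than 1 SD for *Adrb1* (4.04 by the scanner's log ratio, 0.81 with the mean over expressed probes, 2.22 with the deposited table), for *Adra1a* (1.47 and 0.69 with the log ratio and the table), for *Adra2a* (3.39 and 1.70) and for *Gnas* (0.46 with the log ratio, 1.70 with median centring, 0.36 with the probe mean, 0.91 with the table). The number of members with mice 4 to 7 lowest was 3 with median centring, an alternative chosen after seeing the data. No pair with *Adrb3* passed the threshold except with clusters by each gene's own gap, the rule first planned and replaced after seeing the data, where 4 of 8 did over 10 or 6 mice. There r turned to 0.749 for *Adra2a*, 0.840 for *Adora1*, 0.373 for *Gnas* and 0.226 for *Adra1a*. The sign also turned for *Adra1a* with the log ratio (0.049), with median centring (0.287), without the 2 farthest mice (0.340) and with single mice left out (-0.642 to 0.281), for *Gnas* likewise (0.181, 0.415, 0.771 and -0.326 to 0.673) and for *Adora1* with median centring (0.073). No paired analysis was possible because the samples form 1 group.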
